A study of Mus musculus with 4 samples.

Results

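The subunits of the mitochondrial respiratory chain and ATP synthase were examined in nasal process (NP) tissues of E11.5 mouse embryos. Members were chosen by gene symbol (*Nduf* followed by a, b, c, s or v and a digit, *Sdha* to *Sdhd*, *Uqcr*, *Cox4* to *Cox8*, and *Atp5*). This gave 77 of the 13577 genes listed. The members and the other gene lists below were chosen with earlier results of these data known. Complex I held 36 of them, complex II 4, complex III 8, complex IV 13 and complex V, the ATP synthase, 16. The symbols also took in *Cox7a2l*, which encodes a factor that joins complexes III and IV into supercomplexes, and *Atp5s*, which encodes an ATP synthase-associated factor. The 13 subunits encoded by mitochondrial DNA are not analysed here.

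Complexes I and II pass electrons from NADH and succinate to ubiquinone, complex III passes them on to cytochrome c and complex IV to oxygen. Complexes I, III and IV pump protons across the inner membrane, and the ATP synthase uses the returning protons to make ATP. Each complex except complex II joins subunits encoded in the nucleus with subunits encoded by mitochondrial DNA. Several subunits of complexes IV and V exist as paralogs with different tissue distributions.

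The series holds 4 libraries, 2 titled control and 2 titled ca-*Acvr1* mutant. Mutants carry ca-*Acvr1(A11)*, a transgene for a constitutively active form of the BMP type I receptor ACVR1, and *P0-Cre*, which recombines it in neural crest cells, and controls are described in the study as carrying *P0-Cre* without the activated transgene. NP tissue also holds epithelium, vessels, blood and nerve cells that do not derive from *P0-Cre* cells or do so only in part. The genotype entries of the libraries name the groups in the opposite way to the titles. Groups are named here by the titles, as controls and mutants, and every direction below would turn over if the genotype entries were the right ones. Nothing in the labels says whether a library is 1 embryo, a pool or a separate litter, so that p-values measure only the spread between these libraries.

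The deposited values are CPM, the reads of a gene divided by those of its library and multiplied by a fixed factor. The libraries hold from 1956831 to 2408827 reads, so that 1 read is worth from 0.415 to 0.511 CPM. QuantSeq primes at the poly(A) tail and reads the 3′ end, so that the CPM of a gene does not grow with its length. Levels of different genes can then be set side by side, except for genes that share their 3′ end with another annotated gene. The reads of such genes, 17 of the 77 members, could be split between copies. *Acvr1* itself was at 21.5 and 23.1 CPM in controls against 24.1 and 12.6 CPM in mutants, and does not separate the groups. *Cdkn1a*, a target of p53, was at 29.1 and 32.4 CPM in controls against 189.7 and 164 CPM in mutants (log2 fold change 2.48). *Id1*, *Id2* and *Id3*, targets of BMP signaling, had log2 fold changes of −0.50, −0.57 and −0.33 (limma adjusted p = 0.385, 0.187 and 0.446). None of these values was used to assign the groups. Genes that mark the mesenchyme of the NP summed to 1491 and 1782 CPM in controls against 875 and 880 CPM in mutants, with 10 of 10 at a negative log2 fold change and 8, *Pdgfra* among them, called lower by limma. All values of the 77 members came out as whole reads, whereas 1 of these 10 marker genes, *Pdgfra*, has a value that did not. Genes of red blood cells (6 of 10 listed) summed to 7026 and 8487 CPM in controls against 6706 and 7199 CPM in mutants, and those of neural tissue (10 of 10 listed) to 1412, 1431, 1771 and 1900 CPM. Epithelial genes (10 of 10 listed) summed to 269, 249, 423 and 385 CPM in the same order. Macrophage genes (9 of 10 listed) summed to 52.1, 52.8, 87.2 and 129 CPM. The log2 fold change was positive for 9 of the 10 epithelial genes, with *Cdh1* and *Epcam* called by limma. It was positive for all 9 macrophage genes, with *Cx3cr1* and *Mrc1* called. It was positive for all 10 neural genes and negative for 5 of the 6 red blood cell genes, none of them called. The vessel genes summed to between 214 and 227 CPM in the 4 libraries, and the muscle genes (6 of 10 listed) to 12.8, 11.54, 13.7 and 17.3 CPM. In tissue made of several cell types, fewer cells of a type and less RNA per cell cannot be told apart, and the part these cell types have in the results below was not tested.

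The subunits are among the most abundant transcripts of the NP. The median member had a mean of 158 CPM, against 18.6 CPM for the median of all genes listed, and stood at percentile 90.7 of all genes. Together the 77 members took 15720 and 17374 CPM in controls against 15323 and 15700 CPM in mutants. The sum was thus highest in control replicate 2, while control replicate 1 lay only just above both mutants. The group means were 16547 ± 1170 CPM and 15511 ± 267 CPM (SD, n = 2 each), a change of −6.26%, with p = 0.333 in an exact two-sided permutation test, the smallest that 2 libraries against 2 allow.

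To ask whether any subunit differed between the groups, log2(CPM + 1) was compared with limma for the 12462 genes whose mean exceeded 1 CPM, and p was adjusted over all of them by Benjamini-Hochberg. Of the 77 members 76 were tested. The member left out, *Ndufa4l2*, a paralog of *Ndufa4* induced by hypoxia, had at most 0.936 CPM in any library. None of the 76 passed an adjusted p of 0.05, where 0.899% of all genes tested did (0.594% lower and 0.305% higher in mutants). At an unadjusted p under 0.05, 1 member had a higher and 4 had a lower level in mutants, 6.58% of the members against 9.55% of all genes (5.42% higher and 4.12% lower). By this measure the subunits did not stand out from other genes. On the reads recovered from the CPM, the quasi-likelihood test of edgeR called 1 member, *Ndufa4*, and 1.31% of all genes, while DESeq2 and limma-voom called no member.

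Fold changes of the members were small and mostly negative. The log2 fold change (ca-*Acvr1(A11)* minus control) was below 0 for 59 of 76 members, or 77.6%, against 45.8% of all genes, and the median was −0.08 against 0.03 for all genes. It lay within 0.2 of 0 for 59 members, or 77.6%, where 50.6% of all genes did. The median standard error was 0.149 for the members against 0.249 for all genes tested. This share therefore does not show that subunits change less than other genes. The libraries of both groups did not overlap, with the mutants lower, for 20 members (26.3%, against 16.8% of all genes) and, with the mutants higher, for 4 members (5.26%, against 21.9%). The 75 genes for cytosolic ribosomal proteins, which are likewise abundant and short, had a median of 0.05, with 27 below 0.

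**Figure D1:**
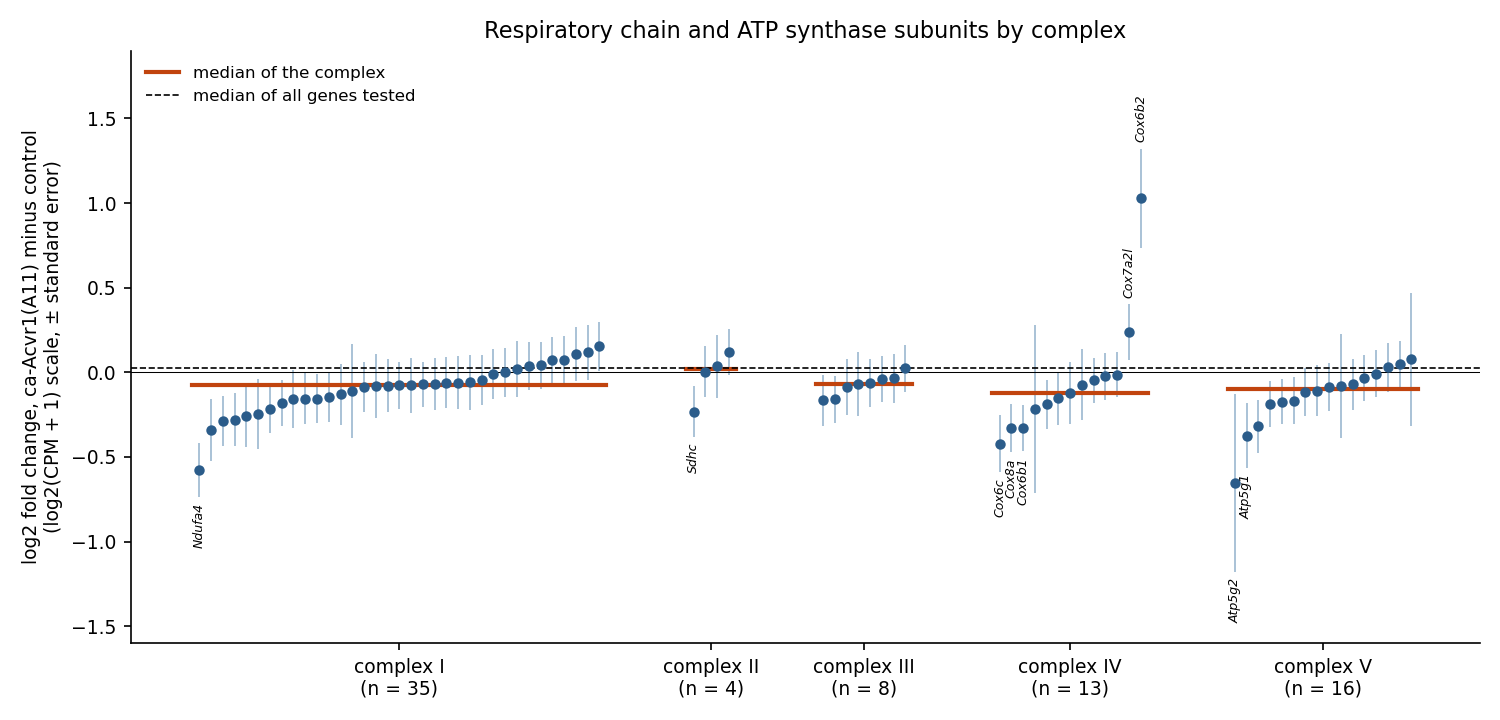
Log2 fold change on the log2(CPM + 1) scale (vertical axis) of the 76 members tested, sorted within complexes I to V, as points with standard errors from limma. Red bars are the medians of the complexes (−0.08, 0.02, −0.07, −0.12 and −0.10) and the dashed line is the median of all genes tested (0.03). Most points lie slightly below 0, with *Cox6b2* far above and *Ndufa4* and *Atp5g2*, the latter at 1 to 5 reads per library, lowest.

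The libraries of 1 group differed from each other as much as the groups did. Control replicate 2 exceeded control replicate 1 at 63 of 76 members, with a median difference of 0.13 on the log2 scale, where the median of all genes was 0.00. Against control replicate 2, mutant replicate 1 was lower at 63 members (median −0.19) and replicate 2 at 57 (median −0.15). Against control replicate 1, in contrast, replicate 1 was lower at 44 members (median −0.035) and replicate 2 was higher at 41 and lower at 35 (median 0.03). Control replicate 2 was the highest of the 4 libraries for 44 members (57.9%), where it was so for 26.3% of all genes. It also had the largest sum of red blood cell and mesenchyme genes. Without control replicate 2 the median of the members was −0.01 with 41 below 0, and without control replicate 1 it was −0.15 with 65 below 0. For 17 members (22.4%) the difference between the groups was larger than the difference between the libraries of either group, which held for 25.6% of all genes.

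**Figure D2:**
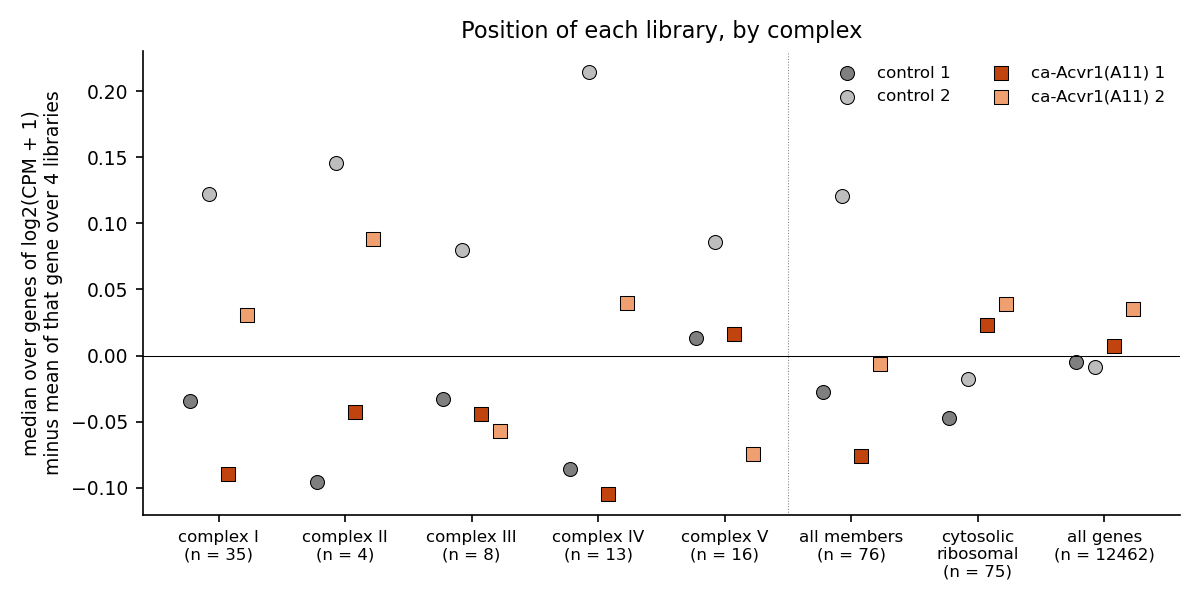
Position of each library (circles, control replicates 1 and 2, squares, mutant replicates 1 and 2), as the median over genes of log2(CPM + 1) minus the mean of that gene over the 4 libraries. Control replicate 2 is highest in every complex, at 0.12, 0.15, 0.08, 0.21 and 0.09 for complexes I to V, while control replicate 1 lies near the mutants; the median of all genes stays between −0.01 and 0.04.

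Complex I had the largest number of members, of which 1, *Ndufa4*, had an unadjusted p under 0.05. Its 35 tested members had means from 17.0 CPM (*Ndufs3*) to 494 CPM (*Ndufb8*). The log2 fold change was below 0 for 27 and had a median of −0.08. The 7 core subunits encoded in the nucleus, which carry the flavin and the iron-sulfur clusters, had a median of −0.09 and the 28 others of −0.07. In total complex I took 5743 and 6465 CPM in controls against 5525 and 5928 CPM in mutants, so that the groups overlapped (p = 0.667, exact permutation test). For 9 members the libraries of the groups did not overlap, all with the mutants lower, which is 25.7% of the 35, against 16.8% of all genes.

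*Ndufa4* (Entrez 17992, GRCm38 chromosome 6, 11900372 to 11907450) had the smallest p of all members. It was named as a complex I subunit and was later found to be part of complex IV. It was at 314 and 474 CPM in controls against 274 and 244 CPM in mutants. Both mutants were below both controls, but the controls differed from each other by more than the lower control did from the mutants. The log2 fold change was −0.58 (standard error (SE) 0.16, limma adjusted p = 0.0952), and over the other tests, scalings, filters and pseudocounts with all 4 libraries and no replicate block the adjusted p ranged from 0.0442 to 0.209. Without control replicate 2 the log2 fold change was −0.28 and without control replicate 1 it was −0.87. In neither fit can the spread between controls be measured. The last 200 bases of its transcript matched no other annotated gene.

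*Ndufb8*, an accessory subunit of the membrane arm and the most abundant member of complex I, was at 492 and 520 CPM in controls against 456 and 508 CPM in mutants (log2 fold change −0.07, limma adjusted p = 0.928). The most positive log2 fold change in complex I was that of *Ndufa5*, an accessory subunit of the matrix arm, which was at 216 and 237 CPM in controls against 224 and 283 CPM in mutants (0.15, limma adjusted p = 0.823). Neither gene separated the groups. An annotated gene overlaps *Ndufb8* on the same strand.

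Complex II, succinate dehydrogenase, is also an enzyme of the tricarboxylic acid cycle. Its 4 genes summed to 712 and 802 CPM in controls against 708 and 812 CPM in mutants, a change of 0.338% (p = 1, exact permutation test). *Sdha*, the catalytic flavoprotein, was at 232 and 230.0 CPM in controls against 241 and 262 CPM in mutants (log2 fold change 0.12, limma adjusted p = 0.863). *Sdhb*, the iron-sulfur subunit, was at 292 and 352 CPM in controls against 280 and 369 CPM in mutants. The mutants lay outside the control range on both sides, with a log2 fold change of 0.00 (limma adjusted p = 0.996) that was negative under each of the other scalings and count tests run. *Sdhc*, a membrane anchor, was at 136 and 145 CPM in controls against 124 and 115 CPM in mutants (−0.23, limma adjusted p = 0.688). *Sdhd*, the other anchor, was at 52.1 and 75.02 CPM in controls against 62.3 and 66.0 CPM in mutants (0.03, limma adjusted p = 0.977, and negative with edgeR, DESeq2 or upper quartile scaling). Thus *Sdha* lay higher and *Sdhc* lower in both mutants, by less than limma's threshold requires, and *Sdhb* and *Sdhd* overlapped.

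Complex III had the narrowest range of the 5 complexes. Its 8 members had log2 fold changes from −0.17 to 0.02, with 7 below 0 and a median of −0.07. The sum was 1583 and 1720 CPM in controls against 1561 and 1564 CPM in mutants, both mutants below both controls (−5.37%, p = 0.333, exact permutation test). *Uqcrh*, the hinge protein beside cytochrome c1, was the most abundant, at 412 and 482 CPM in controls against 378 and 421 CPM in mutants (−0.16, limma adjusted p = 0.796). *Uqcrc2*, a core protein, was at 297 and 299 CPM in controls against 301 and 280 CPM in mutants (−0.04, limma adjusted p = 0.966), and another gene overlaps it on the opposite strand. *Uqcrb*, which lies at a ubiquinone site, was the only member of complex III whose groups did not overlap. It was at 135 and 164 CPM in controls against 132 and 134 CPM in mutants (−0.17, limma adjusted p = 0.814, and from −0.30 to −0.03 with 1 library left out), and 4 annotated pseudogenes share its 3′ end. *Uqcrfs1*, the Rieske iron-sulfur protein, was at 227 and 234 CPM in controls against 247 and 223 CPM in mutants (0.02, limma adjusted p = 0.981, and slightly negative under TMM, RLE and upper quartile scaling and in DESeq2).

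Complex IV, cytochrome c oxidase, held 4 of the 5 members with an unadjusted p under 0.05, which is 30.8% of its 13 members against 9.55% of all genes. Of its 13 members 11 had a log2 fold change below 0, with a median of −0.12. It took 2689 and 3191 CPM in controls against 2529 and 2737 CPM in mutants, so that mutant replicate 2 lay above control replicate 1 (−10.4%, p = 0.667, exact permutation test). With *Ndufa4* added to it, the sum was 3003 and 3665 CPM in controls against 2803 and 2981 CPM in mutants, without overlap (−13.3%, p = 0.333, exact permutation test). As *Ndufa4* had the smallest p of all members, this sum gives no evidence beyond that gene for a change in complex IV.

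*Cox6b1* and *Cox6b2* encode the ubiquitous and the testis form of a subunit on the intermembrane face that helps to hold complex IV dimers together. *Cox6b1* (Entrez 110323, GRCm38 chromosome 7, 30616971 to 30626114) was at 309 and 348 CPM in controls against 252 and 270.0 CPM in mutants. Both mutants lay below both controls, with a log2 fold change of −0.33 (SE 0.14, limma adjusted p = 0.424). *Cox6b2* (Entrez 333182, GRCm38 chromosome 7, 4751792 to 4753094) was at 7.67 and 9.32 CPM in controls against 17.4 and 19.2 CPM in mutants. Both mutants lay above both controls, at 2.16 times the control mean (log2 fold change 1.03, SE 0.29, limma adjusted p = 0.125, from 0.0901 to 1.00 over the same alternatives). Leaving out any 1 library kept it between 0.90 and 1.15. It was the most positive log2 fold change of all members and rests on 15, 21, 42 and 41 reads.

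As a share of the reads of both genes, which does not depend on how libraries are scaled to each other, *Cox6b2* held 2.42% (95% Wilson interval 1.47% to 3.96%) and 2.61% (1.71% to 3.96%) in control. It held 6.47% (4.82% to 8.63%) and 6.63% (4.93% to 8.88%) in mutants. The 2 libraries of each group were alike and the intervals of the groups did not meet. Reads carry no molecular identifiers as far as the sources used here say, and the intervals cover counting error only. Neither gene shares its 3′ end with another annotated gene.

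**Figure D3:**
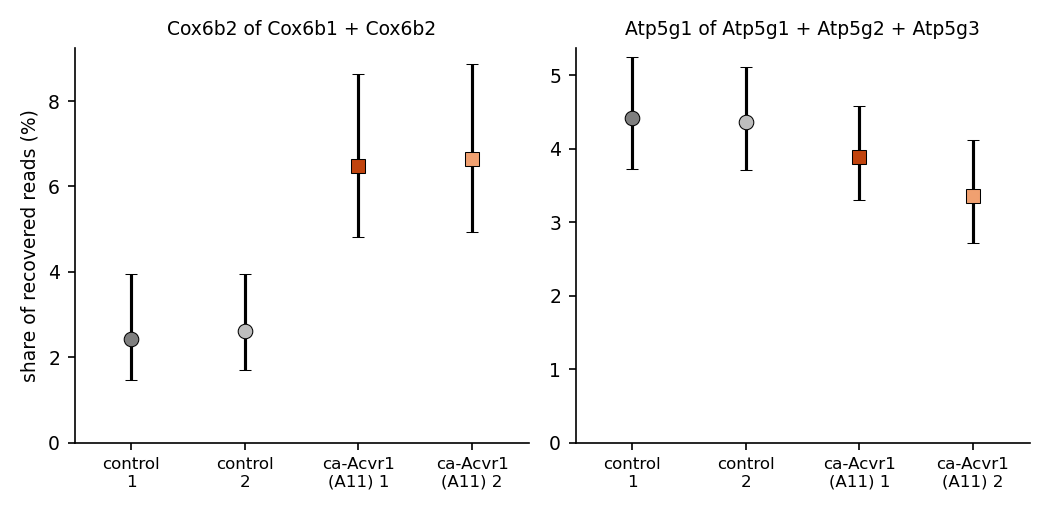
Share of recovered reads (vertical axis, in %) of *Cox6b2* among both *Cox6b* genes and of *Atp5g1* among the 3 genes for subunit c, in each library, with 95% Wilson intervals. The *Cox6b2* share is 2.42% and 2.61% in control and 6.47% and 6.63% in mutants, and the *Atp5g1* share is 4.42%, 4.36%, 3.89% and 3.35% with intervals that overlap.

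The promoters of the *Cox6b* pair and of *Cox8a* are shown because these 3 genes gave the complex IV differences in which both mutants lay on 1 side of both controls and an unadjusted p was under 0.05. The sequences run from 250 bases before to 50 after the start site in RefSeq (GRCm38.p6), each on the minus strand, at chr7:30626065-30626364 for *Cox6b1*, chr7:4753045-4753344 for *Cox6b2* and chr19:7217567-7217866 for *Cox8a*. Capitals mark CTTCCGG, the reverse complement of CCGGAAG, a motif of ETS factors such as GABPA, which acts on many genes for mitochondrial proteins.
Cox6b1: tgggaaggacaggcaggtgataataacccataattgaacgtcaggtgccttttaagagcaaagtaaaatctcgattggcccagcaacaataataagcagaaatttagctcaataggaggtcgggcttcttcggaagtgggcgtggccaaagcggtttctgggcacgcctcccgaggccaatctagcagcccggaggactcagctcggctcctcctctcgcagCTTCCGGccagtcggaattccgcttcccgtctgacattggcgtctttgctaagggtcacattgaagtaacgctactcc
Cox6b2: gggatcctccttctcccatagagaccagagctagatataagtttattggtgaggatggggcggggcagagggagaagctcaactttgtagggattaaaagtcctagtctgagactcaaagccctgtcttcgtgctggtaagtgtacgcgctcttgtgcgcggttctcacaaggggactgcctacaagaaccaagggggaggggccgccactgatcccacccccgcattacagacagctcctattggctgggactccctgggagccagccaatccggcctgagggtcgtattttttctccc
Cox8a: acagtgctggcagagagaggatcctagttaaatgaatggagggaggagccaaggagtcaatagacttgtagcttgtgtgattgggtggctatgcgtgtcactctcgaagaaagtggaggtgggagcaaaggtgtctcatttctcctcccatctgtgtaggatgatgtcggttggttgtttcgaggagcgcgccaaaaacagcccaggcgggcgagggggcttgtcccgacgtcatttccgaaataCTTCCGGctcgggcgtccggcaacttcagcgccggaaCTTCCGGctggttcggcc
The motif occurs 1 time in the *Cox6b1* window, 2 times in that of *Cox8a* and not in that of *Cox6b2*.

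Among the 70 RefSeq promoters of 65 members, CCGGAAG or its reverse complement was found in 22.9%, against 8.86% of all 32851 promoters in the table. The NRF1 motif core GCATGCGC was found in 14.3% of member promoters and 2.71% of all. The YY1 motif ATGGCGGC was found in 7 of the 70 and in 2.24% of all, and the ERRA motif CAAGGTCA in 4.29% and 1.56%. All were searched on both strands. The promoters in the table were not matched to the members for expression or base composition, so that an excess need not be particular to the subunits. By gene, CCGGAAG was found in 16 of the 65 members, GCATGCGC in 10, ATGGCGGC in 6 and CAAGGTCA in 3, so that most members lack each motif. *Cox6b2*, higher in both mutants, was among the members whose window held none of these 4 motifs, and so was *Ndufa4*, lower in both. Whether a motif goes with the direction of a change was not tested.

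*Cox8a* (Entrez 12868, GRCm38 chromosome 19, 7215158 to 7217616), the ubiquitous form of a small membrane subunit, was at 227 and 245 CPM in controls against 199 and 176 CPM in mutants. Both mutants lay below both controls (log2 fold change −0.33, SE 0.14, limma adjusted p = 0.433). *Cox6c* (Entrez 12864, GRCm38 chromosome 15, 35931976 to 35938246), a regulatory subunit of the membrane part, was at 299 and 452 CPM in controls against 234 and 321 CPM in mutants. Here the groups overlapped, with a log2 fold change of −0.42 (SE 0.17, limma adjusted p = 0.380). It became −0.13 without control replicate 2 and −0.72 without control replicate 1. Pseudogenes of *Cox6c* share its 3′ end, 2 in the annotation, so that its reads could be split between copies.

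**Figure D4:**
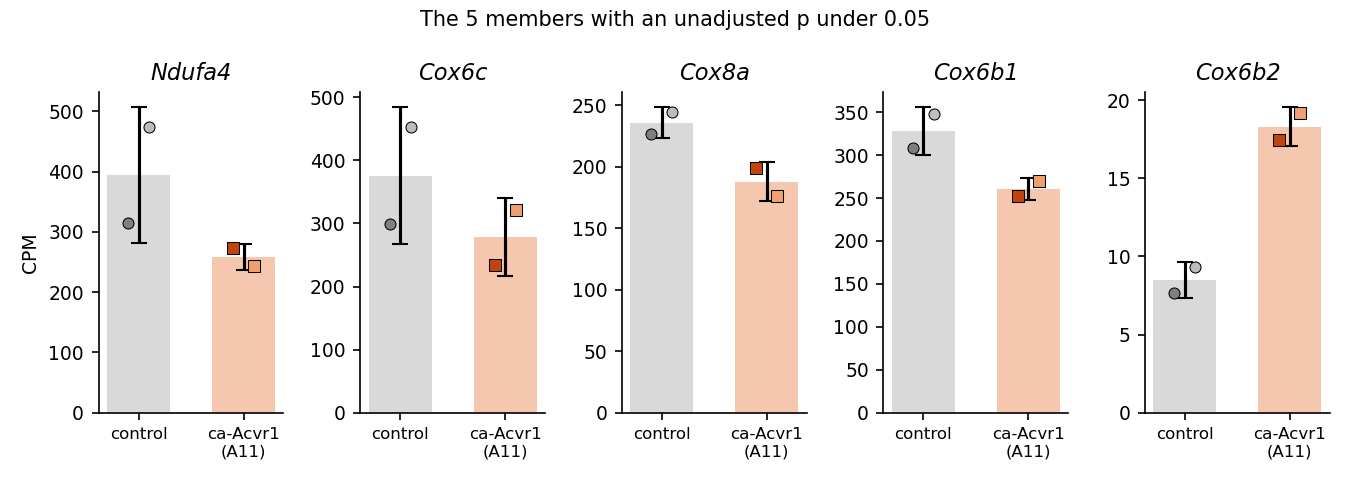
CPM (vertical axes, starting at 0, with a scale for each gene) of the 5 members with an unadjusted p under 0.05, as group means with SD (bars) and single libraries (circles, control replicates 1 and 2, squares, mutant replicates 1 and 2). *Cox6b2* is higher in both mutants, *Ndufa4*, *Cox8a* and *Cox6b1* are lower in both, and *Cox6c* overlaps.

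The other paralogs of complex IV had smaller log2 fold changes. *Cox4i1*, the ubiquitous form of subunit 4, was at 210 and 235 CPM in controls against 213 and 224 CPM in mutants (−0.02, limma adjusted p = 0.981), and another gene overlaps it on the same strand. *Cox6a1*, the ubiquitous form of subunit 6a, was at 242 and 311 CPM in controls against 239 and 243 CPM in mutants (−0.19, limma adjusted p = 0.760), with control replicate 2 alone above the others. A pseudogene shares its 3′ end.

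*Cox7a2*, the ubiquitous form of subunit 7a and the most abundant member of complex IV, was at 384 and 558 CPM in controls against 377 and 459 CPM in mutants (−0.15, limma adjusted p = 0.843). *Cox7a1*, the form of heart and skeletal muscle, had only 3, 8, 3 and 6 reads, or from 0.329% to 0.632% of the reads of both genes. *Cox7a2l* was at 70.5 and 84.3 CPM in controls against 89.3 and 93.1 CPM in mutants, the only complex IV member besides *Cox6b2* to lie higher in both mutants (0.24, limma adjusted p = 0.716, and from 0.11 to 0.37 with 1 library left out). *Cox7b* was at 449 and 421 CPM in controls against 403 and 440 CPM in mutants (−0.05, limma adjusted p = 0.956).

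Complex V, the ATP synthase, held the most abundant member and the largest share of members with both mutants below both controls. Of its 16 members 13 had a log2 fold change below 0, with a median of −0.10, and for 7 (43.8%, against 16.8% of all genes) both mutants lay below both controls. Of these 7, all but *Atp5e* share their 3′ end with another annotated gene, so that their reads could be split between copies. *Atp5g2* among them had from 1 to 5 reads per library. Complex V took 4992 and 5196 CPM in controls against 5000 and 4659 CPM in mutants. Mutant replicate 1 overlapped the controls (−5.20%, p = 0.667, exact permutation test). The catalytic F1 head had a median of −0.03 over 5 subunits, 3 of them below 0, and a sum of 1841 and 1964 CPM in controls against 1938 and 1794 CPM in mutants. The 4 subunits of the peripheral stalk, which holds the head in place, summed to 923 and 938 CPM in controls against 845 and 826 CPM in mutants (−10.2%, p = 0.333, exact permutation test). All 4 had a log2 fold change below 0, with a median of −0.14. *Atp5h*, *Atp5j* and *Atp5o* each share their 3′ end with a pseudogene. In *Atp5f1*, which does not, the groups overlapped, at 182 and 194 CPM in controls against 204 and 157 CPM in mutants (−0.07). The 6 members of the membrane part Fo had a median of −0.14 and summed to 2221 and 2291 CPM in controls against 2208 and 2035 CPM in mutants. None of these members passed limma's threshold.

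*Atp5a1* and *Atp5b* encode the alpha and beta subunits of the F1 head. *Atp5a1* was at 861 and 898 CPM in controls against 922 and 799 CPM in mutants (log2 fold change −0.03, limma adjusted p = 0.971). *Atp5b* was at 476 and 521 CPM in controls against 527 and 503 CPM in mutants (0.05, limma adjusted p = 0.955). In both genes the groups overlapped.

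*Atp5g1*, *Atp5g2* and *Atp5g3* encode the same mature subunit c of the rotating ring. *Atp5g3* was the most abundant of all 77 members, at 1368 and 1371 CPM in controls against 1433 and 1160 CPM in mutants (−0.09, limma adjusted p = 0.915). *Atp5g1* was at 63.4 and 62.6 CPM in controls against 58.1 and 40.2 CPM in mutants (−0.37, limma adjusted p = 0.556). Both mutants lay below both controls, the second by far more than the first, and leaving out 1 library moved the log2 fold change between −0.63 and −0.11. *Atp5g2* had 3, 5, 3 and 1 reads, at or near the 3 reads taken here as the floor of a value, and its log2 fold change of −0.65 (limma adjusted p = 0.771) rests on these few reads. *Atp5g3* thus supplied from 95.5% to 96.6% of the subunit c reads in every library. Other annotated genes, 2 in each case, share the 3′ ends of *Atp5g1* and *Atp5g2*, whose reads could be split between copies.

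Shared 3′ ends touch other members as well. Of the 77 members 17 share at least 50 of their last 200 transcript bases, at 95% identity or more, with another annotated gene. These 17 had a median log2 fold change of −0.12, with 16 below 0, and the 59 tested members that share none had a median of −0.07, with 43 below 0. For 9 members another gene overlaps on the opposite strand, and whether reads were counted by strand is not given in the sources used here.

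Genes that build and maintain the complexes had log2 fold changes on both sides of 0. Of 45 assembly factors tested, 20 had a log2 fold change below 0, with a median of 0.09, and none was called by limma. The 14 factors of complex I had a median of 0.17, and their sum was 454 and 439 CPM in controls against 507 and 503 CPM in mutants (13.0%, p = 0.333, exact permutation test). The sum of the assembly factors of complex I was thus higher in both mutants, while for the sum of its subunits the groups overlapped. Taken singly, 7 of the 14 factors lay higher in both mutants, 1 lower, and 6 overlapped, where 21.9% of all genes lay higher and 16.8% lower. *Ndufaf4*, the most abundant of these factors, was at 127 and 136 CPM in controls against 154 and 157 CPM in mutants. *Foxred1*, which is needed for complex I assembly, was at 18.9 and 13.3 CPM in controls against 30.3 and 23.4 CPM in mutants (0.71, limma adjusted p = 0.303). *Timmdc1*, a complex I assembly factor of the inner membrane, was at 29.6 and 36.4 CPM in controls against 25.7 and 27.1 CPM in mutants (−0.30, limma adjusted p = 0.732).

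The 20 factors of complex IV had a median of 0.00, with 10 below 0. *Surf1*, an early complex IV assembly factor, was at 16.4 and 11.1 CPM in controls against 19.1 and 28.1 CPM in mutants (0.74, limma adjusted p = 0.329). *Pet100*, which also takes part in complex IV assembly, was at 17.4 and 20.9 CPM in controls against 12.9 and 11.2 CPM in mutants (−0.62, limma adjusted p = 0.458). The 2 factors of complex II, 5 of complex III and 4 of complex V had medians of 0.16, −0.10 and 0.01, and their largest changes were those of *Uqcc2* (−0.33) and *Bcs1l* (0.22) in complex III, *Sdhaf2* (0.22) in complex II, and *Tmem242* (−0.18) and *Atpaf2* (0.12) in complex V, none of them called.

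Of 14 regulators of mitochondrial biogenesis 4 had a log2 fold change below 0, with a median of 0.14. *Pprc1*, a coactivator of the PGC-1 family, was at 26.6 and 18.6 CPM in controls against 31.6 and 28.5 CPM in mutants (0.41, limma adjusted p = 0.631). *Tfam*, which packages and transcribes mitochondrial DNA, was at 215 and 230 CPM in controls against 233 and 192 CPM in mutants (−0.07, limma adjusted p = 0.936). Of 12 genes often used as measures of mitochondrial mass 4 were below 0, with a median of 0.14. Of these, *Tomm20*, an import receptor of the outer membrane, was at 51.1 and 47.9 CPM in controls against 54.8 and 66.0 CPM in mutants (0.28, limma adjusted p = 0.697), and *Tomm22*, another import receptor, was at 105 and 123 CPM in controls against 102 and 93.1 CPM in mutants (−0.22, limma adjusted p = 0.723).

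Of 7 carriers and subunits that the symbols did not take in, 5 were below 0, with a median of −0.03. *Cycs*, cytochrome c itself, was at 42.4 and 43.1 CPM in controls against 49.0 and 67.4 CPM in mutants (0.42, limma adjusted p = 0.483). *Usmg5*, an ATP synthase-associated protein, was at 95.6 and 116 CPM in controls against 93.4 and 74.9 CPM in mutants (−0.33, limma adjusted p = 0.548). Neither gene's groups overlapped, with *Cycs* higher and *Usmg5* lower in the mutants.

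**Figure D5:**
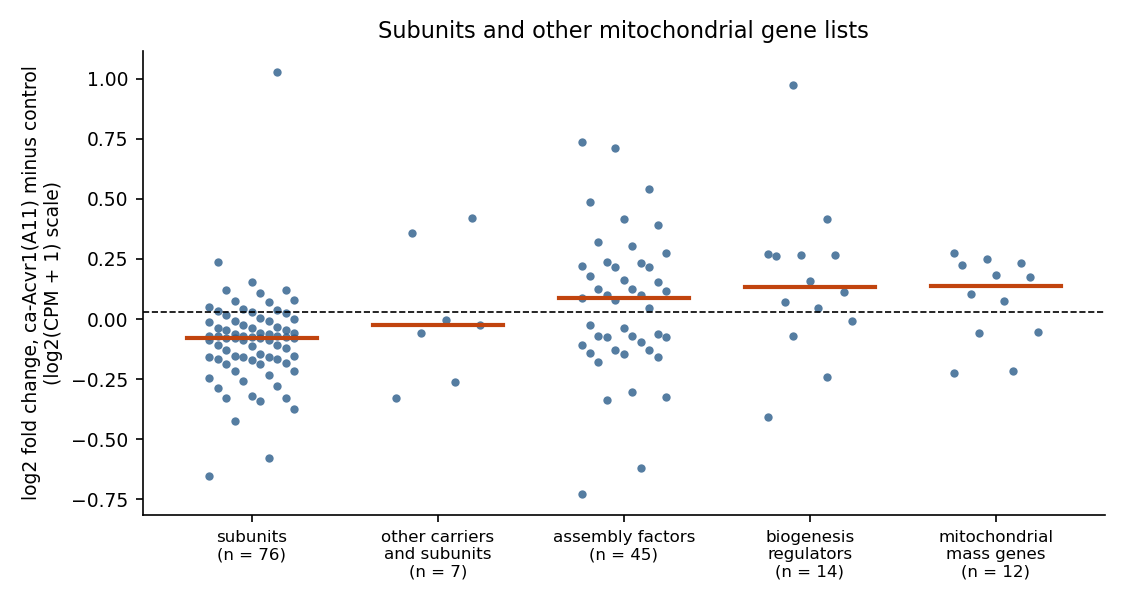
Log2 fold change on the log2(CPM + 1) scale (vertical axis) of the subunits and of 4 other mitochondrial gene lists, 1 point per gene, with the median of each list (red bar) and of all genes tested (dashed line, 0.03). The medians are −0.08 for the subunits, −0.03 for other carriers and subunits, 0.09 for assembly factors, 0.14 for biogenesis regulators and 0.14 for mitochondrial mass genes, and all lists spread across 0.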

How the data were processed

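Bulk QuantSeq 3′ mRNA-Seq libraries of E11.5 NP tissue (2 control, 2 ca-*Acvr1(A11)*, grouped by title) were analyzed from 1 table of CPM values, which the authors deposited as read counts already scaled by library size. The submitters' processing notes name STAR, featureCounts 1.6.4, DESeq2 and mm10, with no role stated. The whole reads behind the deposited CPM were recovered within 0.02 reads, and 43 values in 22 genes, no member among them, were not whole.

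The main test was limma 3.58.1 with a mean-variance trend on log2(CPM + 1), for genes whose mean exceeded 1 CPM, with p adjusted by Benjamini-Hochberg. This scale understates changes of genes with few reads. edgeR 4.0.16, DESeq2 1.42.0 and limma-voom were run on the recovered reads in R 4.3.3, other scalings, filters and pseudocounts were tried, and each library was left out in turn. A fit that leaves 1 library in a group takes its spread from the other group. Sums of CPM were compared with exact two-sided permutation tests. Shared 3′ ends were searched with blastn 2.17.0, exact tests run with scipy 1.17.1 and tables and figures made with pandas 2.3.3, numpy 2.4.6 and matplotlib 3.10.9 in Python 3.11.15.

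All 77 members were matched to RefSeq (GRCm38.p6) by Entrez number and lie on the chromosome given in the table. Genes named are members with an unadjusted p under 0.05 or called in any alternative, the 2 most abundant and the most changed of each complex, paralogs, complex II in full, and of each other list the most changed with a mean of at least 10 CPM. The members and lists were chosen with earlier results of these data known. No column of values was unused (0), and protein sequences were not used here.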

Additional observations from a re-analysis of the deposited data

How the results depend on the processing

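The titles number the replicates 1 and 2 in both groups. Deviations from the group means of libraries with the same number correlated at 0.119 over 8354 genes, and 2 pairs and a number alone do not show pairing, so no pairing was assumed. With the replicate number as a block, 97 genes were called higher and 132 lower, and 2 members (where 1.84% of all genes tested were called) passed, *Cox6b2* (limma adjusted p = 0.0377) and *Ndufa4* (limma adjusted p = 0.00762). With 2 libraries a group, changes near the members' median are below what single genes can show.

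In the main test 38 genes were called higher and 74 lower, and in DESeq2 8 and 31. With the 22 genes that have a value not a whole read left out, 38 were called higher and 62 lower by limma. With 1 library left out, from 31 to 240 genes were called higher and from 54 to 225 lower. Of the members, 1 (*Ndufa4*) was called with TMM scaling, RLE scaling or edgeR's quasi-likelihood test, where 1.04%, 1.05% and 1.31% of all genes were called, and with 1 library left out from 0 to 2 were called. The 2 were *Ndufa4* and *Cox6c*, without control replicate 1, where 3.71% of all genes were called. The members lower at an unadjusted p under 0.05 numbered 4 in the main test, 7 with TMM or RLE scaling (4.94% of all genes), 8 with upper quartile scaling and from 0 to 13 with 1 library left out (13 without control replicate 1, 0 without control replicate 2, where 6.32% and 2.68% of all genes were lower at that p).

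The members below 0 numbered from 57 to 65 under the scalings, filters, pseudocounts and count tests run with all 4 libraries, and from 41 to 65 with 1 left out. Scaling moved the median of all genes from 0.03 to between −0.01 and 0.00. With 1 library left out, the median of complex II ranged from −0.18 to 0.13 and the log2 ratio of the summed complex III from −0.14 to −0.0187.

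Small changes reversed under other scalings and count tests. *Sdhb* went to −0.0258 (TMM), −0.0248 (RLE), −0.0360 (upper quartile), −0.0104 (edgeR), −0.0214 (DESeq2) and −0.0166 (limma-voom). *Sdhd* went to −0.0050 (upper quartile), −0.0137 (edgeR) and −0.0215 (DESeq2), and *Uqcrfs1* to −0.0070 (TMM), −0.0061 (RLE), −0.0173 (upper quartile) and −0.0033 (DESeq2). Under TMM scaling the median of all genes tested also moved, from 0.0286 to 0.0006. The median of all members moved from −0.0782 to −0.1077. The part of this shift in the reversals was not tested. With 1 library left out, the ranges crossed 0 for *Atp5a1* (−0.137 to 0.0697), *Atp5b* (−0.0165 to 0.11), *Atp5g3* (−0.239 to 0.0655), *Cox4i1* (−0.105 to 0.0587), *Cox7a1* (−0.64 to 0.21), *Cox7a2* (−0.42 to 0.12), *Cox7b* (−0.111 to 0.0159), *Ndufa5* (−0.0123 to 0.32), *Ndufb8* (−0.150 to 0.0069), *Sdhb* (−0.19 to 0.20), *Sdhd* (−0.22 to 0.29), *Uqcrc2* (−0.0873 to 0.0131) and *Uqcrfs1* (−0.0502 to 0.0960). It moved by over 1.5 times without crossing 0 for *Atp5g1* (−0.63 to −0.11), *Atp5g2* (−0.96 to −0.35), *Cox6a1* (−0.37 to −0.0074), *Cox7a2l* (0.11 to 0.37), *Sdha* (0.0622 to 0.18), *Uqcrb* (−0.30 to −0.0267), *Uqcrh* (−0.27 to −0.0462), *Cox6c* (−0.72 to −0.13) and *Ndufa4* (−0.87 to −0.28). *Cox6b1*, *Cox6b2*, *Cox6c*, *Cox8a* and *Ndufa4* kept their direction in every alternative run.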
